A study of Mus musculus with 12 samples.

Results

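Hepatic mRNA expression of 10 genes that break down stored or lipoprotein lipid was followed in the livers of 12 male C57BL/6J mice. The genes were chosen by name: the triglyceride lipase Pnpla2 and its paralogue Pnpla3, the Pnpla2 co-activator Abhd5, the lipases Lipe, Mgll and Lipa, and the carboxylesterases Ces1d, Ces1f, Ces1g and Ces3a. They are 10 of the 22947 genes with a value, and for each of them the deposited FPKM values of its transcripts were added up in each liver. FPKM is the number of sequenced fragments of a transcript scaled to its length and to the size of the library. Other differences between libraries can remain in such values, and those seen here are given below.

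Each of the 4 groups held 3 livers, taken at 21 weeks of age after 16 weeks on the diet. ND mice ate a normal diet, HFD mice a high-fat diet, CLE mice the high-fat diet with 1.5% (w/w) of an ethanol extract of Chrysanthemum morifolium leaves, and LU mice the high-fat diet with 0.003% (w/w) of luteolin, a flavone. All mice had eaten normal chow before the diets began, were housed singly and were fasted before the livers were taken. The study's methods call the sequenced livers representative of their groups and do not say how they were picked. HFD against ND asks what the fatty diet did, and CLE or LU against HFD asks what each supplement did on top of it.

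The liver stores surplus fatty acids as triglyceride in lipid droplets and releases them again by lipolysis. In the cytosol, ATGL (the product of Pnpla2) removes the first fatty acid with the help of CGI-58 (Abhd5), hormone-sensitive lipase (Lipe) acts on diacylglycerol, and monoacylglycerol lipase (Mgll) releases the last fatty acid. Lysosomal acid lipase (Lipa) hydrolyses lipid taken up by endocytosis or delivered by autophagy. The carboxylesterases are enzymes of the endoplasmic reticulum, of which Ces1d is known to take part in moving stored triglyceride toward lipoprotein secretion.

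In total the 10 genes reached between 1771 and 2197 FPKM in each of the 12 livers. Ces1d and Ces3a alone made up 61.1% to 67.8% of that sum. On the FPKM scale the highest group means ran from 963.7 for Ces3a in LU livers down to 0.204 for Pnpla3 in ND livers. The 9 genes other than Pnpla3 had a mean over the 12 livers above the minimum of 0.5 FPKM and were tested.

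Ces1g changed most: its mean was 3.9 times as high in HFD as in ND livers, and below that of HFD livers in both supplemented groups. The difference of the supplemented groups from HFD no longer passed when an assembled transcript running through Ces1g was counted to it, as given below. Mgll fell on the high-fat diet. Lipe was higher and Ces1d lower in both supplemented groups than in ND livers. Groups were compared with limma's moderated test on log2(FPKM + 1), fitted over 12001 genes with Benjamini-Hochberg adjustment at 0.05, and fold changes are on that scale. Where 3 livers are set against 3, an exact permutation test cannot go below p = 0.1. The 4 groups were therefore also tested at once, gene by gene, with the F statistic and an exact permutation over 15400 splits of the livers, unadjusted, which can reach 6.5e-05. An F test has no direction.

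Between HFD and ND livers 2 of the 9 tested members passed, 1 higher (Ces1g) and 1 lower (Mgll), where 11.8% of all tested genes passed. Between CLE and HFD livers 1 member passed (Ces1g, lower), with 5.68% of all genes. Between LU and HFD livers 1 member passed (Ces1g, lower), with 1% of all genes. Between CLE and ND livers 4 members passed, 2 higher (Lipe and Ces1g) and 2 lower (Lipa and Ces1d), with 26.7% of all genes. Between LU and ND livers 4 members passed, 2 higher (Lipe and Ces1g) and 2 lower (Mgll and Ces1d), with 14.5% of all genes. Between CLE and LU livers none of the 9 members passed limma's test or an unadjusted p of 0.05, and 0.00833% of all genes passed. The shares of all genes depended on single mice. For CLE against HFD 682 genes passed, and 29 without HFD mouse 15 or 2267 without CLE mouse 2. For LU against HFD 120 passed, and 21 without LU mouse 3 or 543 without CLE mouse 4.

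Without regard to the test, 4 of the 9 members had HFD values that did not overlap the ND values, and 36.1% of all tested genes did so. For CLE against HFD it was 3 members (31.2% of all genes), for LU against HFD 4 members (30.1%), for CLE against ND 7 members (42.2%), for LU against ND 7 members (41.1%), and for CLE against LU 0 members (7.07%). The comparisons that share a group share its livers. The median log2 fold change over the 9 members was 0.08 for HFD against ND, where that of all tested genes was 0.11. It was 0.11 for CLE against HFD (0.02 for all genes), -0.08 for LU against HFD (-0.02), 0.27 for CLE against ND (0.16) and 0.20 for LU against ND (0.12).

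**Figure D1:**
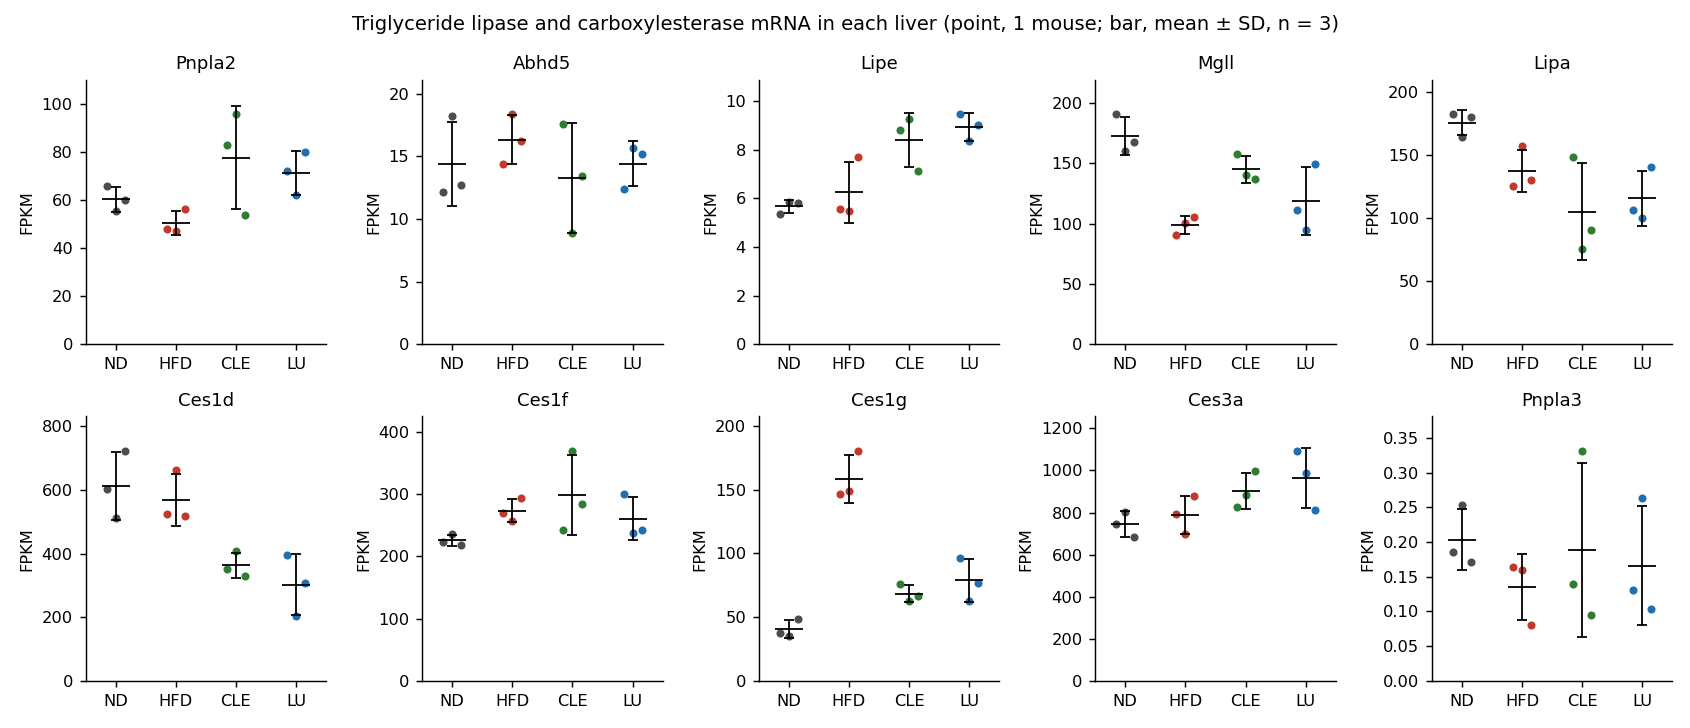
Summed FPKM of each of the 10 genes (linear axes, each from 0) by liver and group, ordered ND, HFD, CLE, LU. Points are single mice and bars the mean ± SD (n = 3). For Ces1g the 3 HFD livers lie between 146 and 180 FPKM, above every other liver.

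Within the whole series, the libraries correlated at 0.978 or more on average with the others of their group, and median-of-ratios size factors ran from 0.895 to 1.056. With the values as deposited, 82.8% of the genes that passed in HFD against ND were higher in HFD livers, and with those size factors 55.1% were. The same share went from 77.1% to 42.3% for CLE against ND and from 74.6% to 40.6% for LU against ND, as the median of all genes moved by over 0.1 on the log2 scale. For CLE against HFD a correction for GC content moved it from 44.4% to 32.7%. The log2 values of a library, less their mean over all libraries, correlated with the GC content of the genes at Spearman's rho of -0.37 to -0.14 in ND and HFD livers and 0.16 to 0.47 in CLE and LU livers, so that GC content and supplement cannot be told apart. The summed level of 10 hepatocyte markers was 37390 to 42620 FPKM in ND, 43770 to 56850 FPKM in HFD, 39860 to 56270 FPKM in CLE and 44980 to 66480 FPKM in LU livers, and none of the 10 passed between HFD and ND or between LU and HFD (3 and 1 with an unadjusted p under 0.05). Apoa1 was higher in CLE than in HFD (0.84), Fgb (-0.53) and Cps1 (-1.003) were lower in CLE than in ND, and in LU against ND Cps1 was lower (-0.91) and Cyp2e1 higher (0.53). Albumin, the defining one, was listed at 0 in 11 of the 12 livers, which in such estimates need not mean absence, and at 19850 FPKM in 1 LU liver, which that liver's sum includes.

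The first enzyme of the cytosolic pathway, Pnpla2 (ENSMUSG00000025509, chromosome 7, 141455198 to 141460743, plus strand of GRCm38), did not pass in any comparison. It reached 65.8, 55.5 and 60.1 FPKM in ND livers and 48.0, 47.4 and 56.5 FPKM in HFD livers. In CLE livers it reached 83.2, 95.9 and 54.1 FPKM, and in LU livers 72.0, 62.0 and 80.0 FPKM. Every LU liver was above every HFD liver, and 2 of the 3 CLE livers were the highest of all 12, with the third inside the HFD range. On the log2 scale CLE differed from HFD livers by 0.57 (SE 0.179, limma adjusted p = 0.0678) and LU from HFD livers by 0.48 (SE 0.179, adjusted p = 0.169). Without CLE mouse 11 it was 0.81 for CLE against HFD (adjusted p = 0.0218) and 0.56 for CLE against ND (adjusted p = 0.0216). With known transcripts only, Pnpla2 also passed in CLE against HFD (0.86, adjusted p = 0.0389) and in CLE against ND (0.62, adjusted p = 0.039). Among the 4 groups its exact permutation p was 0.0885. The largest Pnpla2 transcript, ENSMUST00000026583, held 47.6% to 61.9% of the sum. It is annotated as a transcript subject to nonsense-mediated decay and not as protein coding.

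Abhd5 (ENSMUSG00000032540, chromosome 9, 122351608 to 122381524, plus strand), whose product activates ATGL, was the steadiest of the tested members by its fold between the highest and the lowest group mean (1.23). It reached 12.2, 18.3 and 12.7 FPKM in ND, 14.4, 18.4 and 16.2 FPKM in HFD, 17.6, 8.84 and 13.4 FPKM in CLE and 12.4, 15.7 and 15.2 FPKM in LU livers. The groups overlapped in every comparison, and the exact permutation p was 0.658. The 95% interval for CLE against HFD ran from -0.78 to 0.14 on the log2 scale.

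Lipe (ENSMUSG00000003123, chromosome 7, 25379527 to 25398710, minus strand) was higher in both supplemented groups than in ND livers. It reached 5.36, 5.85 and 5.79 FPKM in ND livers, 5.58, 5.47 and 7.70 FPKM in HFD livers, 8.81, 9.26 and 7.15 FPKM in CLE livers and 9.46, 8.35 and 9.01 FPKM in LU livers. Every supplemented liver was above every ND liver. HFD mouse 18 lay between the CLE livers, and no HFD liver reached the lowest LU liver. Mean Lipe was 1.48 times as high in CLE as in ND livers (log2 fold change 0.49, SE 0.134, limma adjusted p = 0.0209) and 1.58 times as high in LU as in ND livers (0.57, SE 0.134, adjusted p = 0.0183). Against HFD livers Lipe differed by 0.38 in CLE (adjusted p = 0.0905) and by 0.47 in LU livers (adjusted p = 0.105) on the log2 scale. The exact permutation p among the 4 groups was 0.0119.

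Both Lipe calls sat near the threshold. Of the 26 alternatives named at the end, CLE against ND passed in 17 and LU against ND in 20. Most of the losses are given here. CLE against ND was lost with median-of-ratios scaling (0.34, adjusted p = 0.0703), quantile normalization (0.36, 0.0553), known transcripts only (0.46, 0.0536) and the highest transcript alone (0.62, 0.0649), with the correction for GC content (0.10, adjusted p = 0.544), without ND mouse 2 (adjusted p = 0.0609), without ND mouse 4 (0.054) and without CLE mouse 4 (0.0712). LU against ND was lost with known transcripts only (0.50, adjusted p = 0.0526) and the GC correction (0.28, adjusted p = 0.122), without ND mouse 2 (0.0587), without ND mouse 4 (0.0514) and without LU mouse 2 (0.0533). Lipe is known for its abundance in fat cells, so the adipocyte markers stand beside it. Of 8 such markers 4 were tested, and all 4 (Cidea, Cfd, Fabp4 and Car3) were higher in HFD than in ND livers. In CLE and in LU against ND livers 3 of the 4 were higher, all but Car3. Against HFD livers none passed with either supplement. The summed level of the 8 was 430 to 897 FPKM in ND, 1517 to 2043 FPKM in HFD, 928 to 1548 FPKM in CLE and 860 to 2216 FPKM in LU livers. Most of that sum was Car3 alone, with means of 670 FPKM in ND, 1684 in HFD, 1079 in CLE and 1199 in LU livers. The defining markers Adipoq, Plin1, Lep and Retn stayed below 1 FPKM in every liver. Adipoq, the gene of the fat cell hormone adiponectin, was 0.589 ± 0.147 FPKM (SD, n = 3) in LU livers and at most 0.145 FPKM in the others, and Lep, the leptin gene, was listed at 0 in the 9 livers outside LU. Their part in the Lipe values was not tested.

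Lipe has 2 starts in the RefSeq annotation of GRCm38.p6, and the 2 transcripts that begin there did not behave alike, so both promoters are shown. In the windows below, each of 250 bases before and 50 bases after the start, capitals mark matches on either strand to 6 short words: the E-box (CACGTG), the GC box (GGGCGG), the CCAAT box (CCAAT), the TATA box (TATAAA), the nuclear receptor motif (AGGTCA) and the FOXO core (GTAAACA). The upstream window is chr7:25395938-25396237 and the downstream window chr7:25390063-25390362, both read on the minus strand.
Lipe upstream start: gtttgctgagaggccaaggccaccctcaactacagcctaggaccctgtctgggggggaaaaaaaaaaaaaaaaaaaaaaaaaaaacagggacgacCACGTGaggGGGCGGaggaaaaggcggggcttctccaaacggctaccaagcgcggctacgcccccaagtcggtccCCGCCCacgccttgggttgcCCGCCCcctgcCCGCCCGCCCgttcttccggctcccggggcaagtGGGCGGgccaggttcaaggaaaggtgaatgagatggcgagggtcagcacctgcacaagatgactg
Lipe downstream start: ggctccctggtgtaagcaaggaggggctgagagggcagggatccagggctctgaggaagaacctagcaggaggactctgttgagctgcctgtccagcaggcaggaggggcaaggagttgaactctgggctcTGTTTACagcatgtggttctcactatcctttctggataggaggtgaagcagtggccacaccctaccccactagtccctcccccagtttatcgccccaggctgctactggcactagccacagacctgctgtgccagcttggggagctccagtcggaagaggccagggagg
The upstream window holds 19 CG dinucleotides, 1 E-box (in 7.15% of the 32851 promoters of the table) and 6 GC boxes (at least 1 in 35.7%), of which 2 overlap by a pair of bases. The downstream window holds 2 CG dinucleotides and 1 FOXO core (3.65%). A match to such a word is a description of the sequence and not a binding site.

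The transcript of the upstream Lipe start (ENSMUST00000003207, which begins at that base) lay at 2.48 ± 0.494 FPKM in ND, 2.88 ± 0.388 FPKM in HFD, 2.76 ± 0.73 FPKM in CLE and 2.32 ± 0.297 FPKM in LU livers (SD, n = 3). The transcript of the downstream start (ENSMUST00000054301, which begins 6 bases inside the RefSeq start) reached 2.67 to 3.71 FPKM in ND, 1.92 to 4.36 FPKM in HFD, 4.61 to 6.33 FPKM in CLE and 4.82 to 7.10 FPKM in LU livers. It was above every ND and HFD value in all 6 supplemented livers. It held 34.4% to 63.4% of the Lipe sum in ND and HFD livers and 57.2% to 75% in CLE and LU livers. These transcripts were picked after their values were seen and were not tested, and Cufflinks shares fragments out between transcripts that overlap.

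Mgll (ENSMUSG00000033174, chromosome 6, 88724412 to 88828360, plus strand) fell on the high-fat diet. It reached 190.6, 160.0 and 167.9 FPKM in ND livers against 90.6, 100.4 and 105.7 FPKM in HFD livers, and 157.9, 140.3 and 136.7 FPKM in CLE livers against 111.5, 94.5 and 149.7 FPKM in LU livers. No HFD liver reached any ND or CLE liver, and the LU livers spanned from the HFD to the CLE range. The mean in HFD was 0.572 of that in ND livers (log2 fold change -0.80, SE 0.15, limma adjusted p = 0.00557). It stayed below ND in LU livers (-0.56, SE 0.15, adjusted p = 0.0291), a call lost without ND mouse 2 (0.0953), ND mouse 4 (0.0737), LU mouse 2 (0.0779) or LU mouse 3 (0.103). In all that call was kept in 21 of 26 alternatives. The CLE mean was 1.47 times the HFD mean, a difference that missed the threshold (0.55, SE 0.15, adjusted p = 0.0519). It passed without LU mouse 3 (0.0424) and without LU mouse 8 (0.0321). Mice of a group that is not compared enter only through the shared estimate of the spread, the filter and the adjustment over all genes. The exact permutation p of Mgll among the 4 groups was 0.00955.

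Of the 11 transcripts in the Mgll sum, 2 that moved in different ways are described here. The known transcript ENSMUST00000113585, which spans the gene, reached 105, 96.1 and 106 FPKM in ND, 52.2, 64.0 and 63.2 FPKM in HFD, 65.7, 28.7 and 40.4 FPKM in CLE and 39.7, 25.0 and 59.4 FPKM in LU livers. All 9 livers on the high-fat diet were below every ND liver. An assembled transcript that begins inside the gene at base 88736924 reached 45.2, 36.7 and 21.7 FPKM in ND, 17, 13.1 and 23.2 FPKM in HFD, 60.0, 90.7 and 73.3 FPKM in CLE and 54.0, 50.9 and 58.7 FPKM in LU livers. It was above every ND and HFD value in all 6 supplemented livers, where it held 38% to 64.7% of the Mgll sum, against 12.9% to 23.7% in ND and HFD livers. With known transcripts only, Mgll in CLE against HFD turned to -0.49 (adjusted p = 0.345), in LU against HFD to -0.68 (adjusted p = 0.252), and the fall from ND to HFD kept its size but not its call (-0.79, adjusted p = 0.201). In CLE against ND livers Mgll then passed (-1.28, adjusted p = 0.0219). The higher Mgll sum of CLE than of HFD livers thus rested on the assembled transcript.

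**Figure D2:**
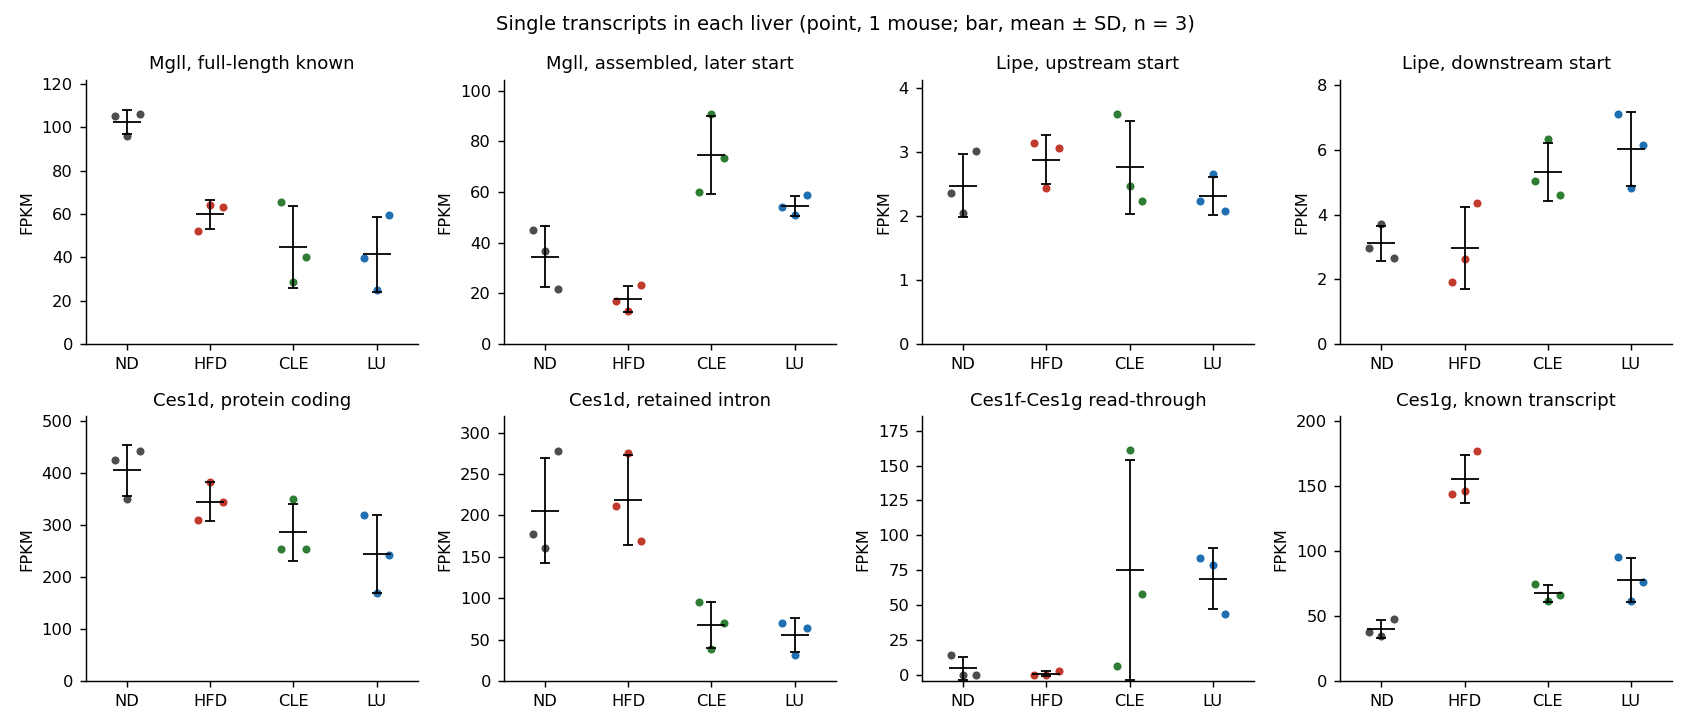
FPKM of single transcripts (linear axes) of Mgll, Lipe, Ces1d and the Ces1f to Ces1g region in each liver. Points are single mice and bars the mean ± SD (n = 3). The assembled Mgll transcript and the Lipe transcript of the downstream start are higher, and the retained intron transcript of Ces1d lower, in all 6 CLE and LU livers than in all 6 ND and HFD livers. The same sets of livers differed in the GC correlation of their libraries, so GC content and supplement cannot be told apart here.

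Pnpla3 (ENSMUSG00000041653, chromosome 15, 84167837 to 84187236, plus strand), a paralogue of ATGL that in other settings follows SREBP-1c, was close to silent. Its own transcripts summed to 0.186, 0.254 and 0.171 FPKM in ND, 0.164, 0.160 and 0.081 FPKM in HFD, 0.140, 0.331 and 0.0951 FPKM in CLE and 0.131, 0.264 and 0.103 FPKM in LU livers. The HFD values were all below the ND values, by little, and the other groups overlapped. It was below the minimum for testing, and its exact permutation p was 0.757. The deposited table gives the name Pnpla3 to 12 transcripts, of which 5 belong to the neighbouring gene Samm50, a mitochondrial outer membrane protein. Those 5 held 99.8% of the FPKM under that name (63.9 to 121 FPKM a liver), so that a sum by the deposited name describes Samm50.

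Lipa (ENSMUSG00000024781, chromosome 19, 34492318 to 34527474, minus strand), the lysosomal lipase, was highest in ND livers. It reached 182.2, 164.1 and 179.8 FPKM in ND, 125.2, 156.7 and 129.8 FPKM in HFD, 148.5, 75.8 and 90.7 FPKM in CLE and 106.6, 99.8 and 140.0 FPKM in LU livers. All 9 livers on the high-fat diet were below every ND liver. The mean in CLE was 0.599 of that in ND livers (log2 fold change -0.79, SE 0.208, limma adjusted p = 0.0177). That call was lost without ND mouse 2 (0.0505), ND mouse 4 (0.0551), CLE mouse 4 (0.0667) or CLE mouse 11 (0.0507). In all it was kept in 21 of 26 alternatives. For LU against ND the log2 fold change was -0.61 (adjusted p = 0.0649), which passed with median-of-ratios scaling (-0.74, adjusted p = 0.0335), without CLE mouse 2 (0.0158) and without CLE mouse 4 (0.0324). For HFD against ND it was -0.36 (adjusted p = 0.299) and for CLE against HFD -0.44 (adjusted p = 0.182). Without CLE mouse 2, the highest CLE liver, the latter was -0.71 (adjusted p = 0.0144). The exact permutation p of Lipa was 0.0616.

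Macrophages are rich in lysosomal acid lipase. Of 11 Kupffer cell and macrophage markers 4 (Vsig4, Cd5l, Cd68 and Csf1r) were higher in HFD than in ND livers and 7 did not pass, among them Marco (-0.40) and Cd163 (-0.43). In CLE against ND 3 were higher (Clec4f, Cd5l and Cd68) and in LU against ND 1 (Cd68). The sum of the 11 was 111 to 121 FPKM in ND, 159 to 237 FPKM in HFD, 157 to 203 FPKM in CLE and 120 to 204 FPKM in LU livers, the last of which overlapped ND. Their part in the Lipa values was not tested. In such whole-liver samples fewer cells of a type and less RNA per cell cannot be told apart. Of 20 other lysosomal proteins 5 were higher in HFD than in ND livers and none was lower. Among them were the cathepsins Ctsa and Ctsb, the membrane protein Lamp1 and the enzyme gene Hexa. Ctsb went from 102 ± 9.29 to 159 ± 6.97 FPKM (SD, n = 3, limma adjusted p = 0.0094). The median log2 fold change of the list was 0.28, and that of all tested genes 0.11. In CLE against HFD livers Lamp2, a membrane protein, fell (-0.66) and Gaa, acid glucosidase, rose (0.43). In LU against HFD livers none passed limma's test and 4 passed an unadjusted p of 0.05. In CLE against ND livers 4 were higher (Tfeb, a transcription factor of lysosomal genes, by 0.74, Ctsa by 0.62, Ctsz by 0.59 and Neu1 by 0.47) and 1 was lower (Lamp2, -0.51). In LU against ND livers 6 were higher and none was lower, among them Ctsa (0.61), Tfeb (0.58), Hexa (0.55), Ctsz (0.52) and Neu1 (0.50).

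Ces1g (ENSMUSG00000057074, chromosome 8, 93302369 to 93337308, minus strand), a carboxylesterase known for hydrolysing triglyceride and cholesteryl ester in liver, had the widest range among the groups. It reached 37.9, 35.4 and 48.8 FPKM in ND livers and 146.4, 149.3 and 180.4 FPKM in HFD livers. In CLE livers it reached 76.1, 62.5 and 67.0 FPKM, and in LU livers 96.7, 62.7 and 77.0 FPKM. The HFD livers were above all 9 others, the ND livers below all 9 others, and the CLE and LU livers overlapped between them. HFD exceeded ND livers by 1.94 on the log2 scale (SE 0.165, 95% interval 1.59 to 2.30, limma adjusted p = 3.1e-05). CLE differed from HFD livers by -1.20 (SE 0.165, -1.56 to -0.84, adjusted p = 0.00429) and LU from HFD livers by -1.02 (SE 0.165, -1.37 to -0.66, adjusted p = 0.0145).

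Both supplemented groups still exceeded ND livers in Ces1g, CLE by 0.75 (adjusted p = 0.00948) and LU by 0.93 (adjusted p = 0.00577) on the log2 scale. CLE and LU did not differ beyond their spread (-0.18, 95% interval -0.54 to 0.18). The exact permutation p of Ces1g among the 4 groups was 0.00026, the smallest of the 10 genes. The fall in LU livers lost its call without HFD mouse 15 (adjusted p = 0.0543), HFD mouse 18 (0.0652) or LU mouse 3 (0.0735), with values of -1.06, -0.92 and -0.86. Ces1g made up 1.78% to 2.32% of the 10-gene sum in ND livers, 7.13% to 8.25% in HFD livers and 3.05% to 4.4% in the supplemented livers.

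The promoter window of Ces1g is shown because this gene carried the clearest change. It is chr8:93337160-93337459 on the minus strand (RefSeq, GRCm38.p6), whose start lies 99 bases inside the start of the deposited transcript, and capitals mark the same words as above.
Ces1g start: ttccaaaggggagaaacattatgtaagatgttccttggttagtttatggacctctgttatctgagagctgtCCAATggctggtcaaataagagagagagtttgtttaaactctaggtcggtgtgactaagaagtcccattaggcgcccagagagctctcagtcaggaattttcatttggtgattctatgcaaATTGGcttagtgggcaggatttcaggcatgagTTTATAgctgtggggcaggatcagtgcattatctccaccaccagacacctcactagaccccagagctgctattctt
The window holds 2 CCAAT boxes (at least 1 in 37.4% of all promoters of the table) and 1 TATA box (13.6%). The TATA box reads on the strand opposite to the gene. It lies 26 bases before the RefSeq start and so inside the deposited transcript. The GC content of the window was 45%, below the median of 52.7% over all promoters, and the window holds 2 CG dinucleotides, where the median was 7. The nuclear receptor motif, which 16.3% of promoters hold, was not in these letters. RefSeq promoters were matched for 7 of the 10 genes.

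One assembled transcript bears on the Ces1g values. It runs from 93256236 to 93366773 on chromosome 8, through Ces1f, Ces1g and Ces1h, and is counted to Ces1f in the sums. It reached 14.6, 0.0024 and 0.0001 FPKM in ND livers, 0.0005, 0.0001 and 3.19 FPKM in HFD livers, 6.31, 161 and 57.8 FPKM in CLE livers and 83.9, 79.0 and 43.8 FPKM in LU livers. Only 1 CLE liver lay within the range of the ND and HFD livers. If all of it is added to Ces1g, the gene reaches 52.5, 35.4 and 48.8 FPKM in ND, 146, 149 and 184 FPKM in HFD, 82.4, 223 and 125 FPKM in CLE and 181, 142 and 121 FPKM in LU livers. Ces1g then differed by -0.27 for CLE against HFD (adjusted p = 0.557) and by -0.12 for LU against HFD (adjusted p = 0.833), while its rise on the high-fat diet kept its call. Leaving the transcript out could change no Ces1g value, since it is counted to Ces1f, so that setting does not bear on Ces1g. The fall of Ces1g in supplemented livers is one of the FPKM listed for its own 2 transcripts. How the fragments of the shared region divide was not tested.

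Ces1f (ENSMUSG00000031725, chromosome 8, 93256236 to 93279747, minus strand), next to Ces1g, did not pass in any comparison. It reached 223.6, 235.1 and 217.7 FPKM in ND, 268.7, 256.7 and 293.0 FPKM in HFD, 242.5, 368.9 and 283.5 FPKM in CLE and 299.6, 237.3 and 242.7 FPKM in LU livers. Every liver on the high-fat diet was above every ND liver. Without the long transcript its values were 209, 235 and 218 FPKM in ND, 269, 257 and 290 FPKM in HFD, 236, 208 and 226 FPKM in CLE and 216, 158 and 199 FPKM in LU livers. The HFD livers were then the highest, and the log2 fold changes went from 0.11 to -0.28 for CLE against HFD (adjusted p = 0.15) and from -0.08 to -0.52 for LU against HFD (adjusted p = 0.0696). Without CLE mouse 2, Ces1f with that transcript passed in CLE against ND (0.52, adjusted p = 0.0191). The exact permutation p was 0.148.

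Ces1d (ENSMUSG00000056973, chromosome 8, 93166068 to 93197838, minus strand) encodes the enzyme also called triacylglycerol hydrolase, which is known to supply lipid for very-low-density lipoprotein. It reached 603.0, 512.1 and 722.8 FPKM in ND livers, 523.4, 661.5 and 518.4 FPKM in HFD livers, 352.3, 407.7 and 329.6 FPKM in CLE livers and 395.4, 202.8 and 308.4 FPKM in LU livers. All 6 supplemented livers were below all 6 others, and ND and HFD livers overlapped. The mean in LU was 0.493 of that in ND livers (log2 fold change -1.06, SE 0.214, limma adjusted p = 0.0109) and in CLE 0.593 (-0.74, SE 0.214, adjusted p = 0.025). The CLE call was lost without ND mouse 2 (0.0588), ND mouse 4 (0.0955) or CLE mouse 11 (0.0687), and with the highest transcript alone (-0.51, adjusted p = 0.107). In all it was kept in 20 of 26 alternatives.

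Against HFD livers Ces1d differed by -0.64 in CLE (adjusted p = 0.08) and by -0.95 in LU livers (adjusted p = 0.0597). The former passed without LU mouse 3 (0.049), and the latter without CLE mouse 4 (0.0358) or LU mouse 2 (0.0404, value -1.17). HFD and ND livers differed by -0.10 (95% interval -0.57 to 0.36), and the exact permutation p among the 4 groups was 0.00403. Both main transcripts were lower in the supplemented groups on average. The clearer split was in the transcript with a retained intron at the 5′ end of the gene (ENSMUST00000129987, 93194805 to 93197777), at 206 ± 63.2 FPKM in ND, 219 ± 54.1 FPKM in HFD, 67.7 ± 28 FPKM in CLE and 55.3 ± 20.6 FPKM in LU livers (SD, n = 3). The protein-coding transcript (ENSMUST00000034172) lay at 406 ± 49.6, 346 ± 37, 286 ± 55.3 and 245 ± 74.8 FPKM in the same order. Every pair of groups overlapped in it except ND and LU. ND mouse 3 (349.6 FPKM) lay just below CLE mouse 4 (350.2 FPKM). The retained intron held 29.5% to 41.7% of the Ces1d sum in ND and HFD livers and 9.54% to 26.9% in the supplemented livers.

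Ces3a (ENSMUSG00000069922, chromosome 8, 105048601 to 105058413, plus strand), another triglyceride hydrolase of the endoplasmic reticulum, was the most abundant of the 10 in all groups but reached no call. It stood at 748.1, 804.1 and 684.3 FPKM in ND, 793.5, 696.8 and 879.0 FPKM in HFD, 827.1, 881.6 and 997.3 FPKM in CLE and 1093, 987.6 and 811.0 FPKM in LU livers. All supplemented livers were above all ND livers. The log2 fold change for LU against ND was 0.36 (SE 0.144, limma adjusted p = 0.0997), for CLE against ND 0.27 (adjusted p = 0.163) and for HFD against ND 0.08 (95% interval -0.23 to 0.39). The last of these turned negative with median-of-ratios scaling (-0.08). The exact permutation p was 0.088. Its main transcript shares 177 of 1947 windows of 100 bases with its neighbour Ces3b, so fragments there can be shared out between both. None of the other 8 tested members shared such a window with another gene.

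**Figure D3:**
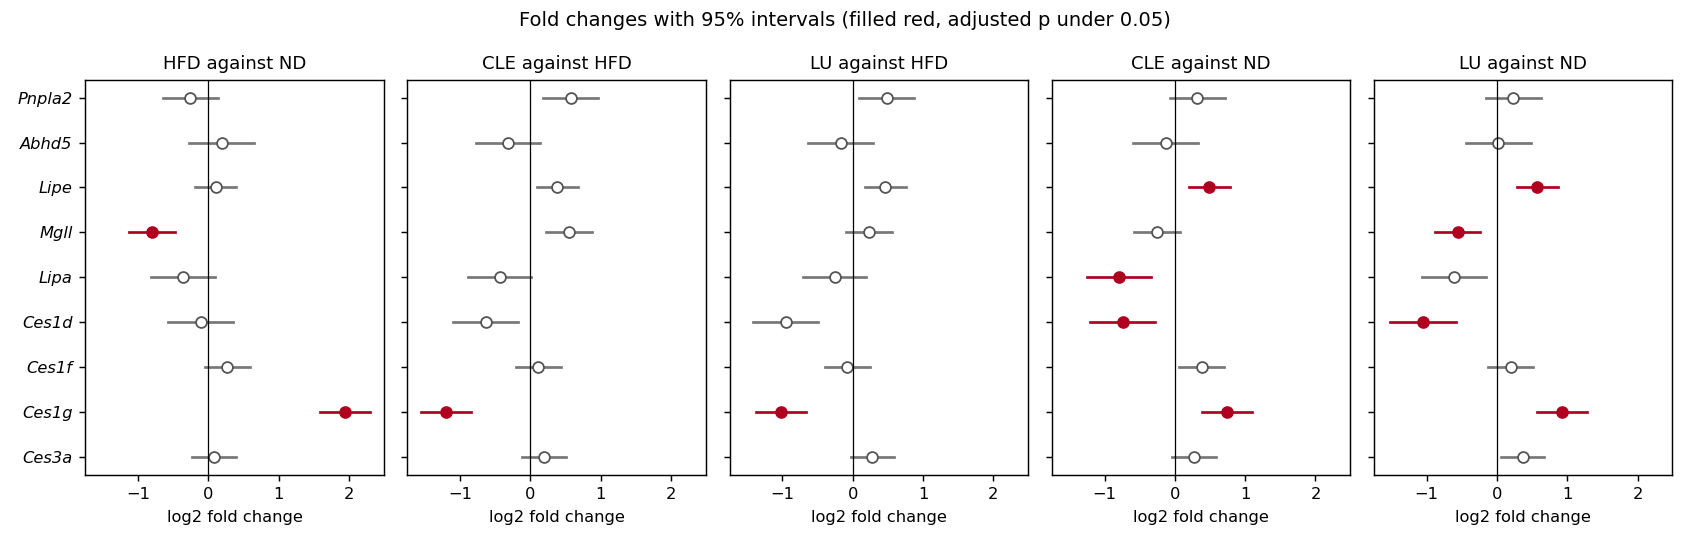
Log2 fold changes of the 9 tested genes on the log2(FPKM + 1) scale in 5 comparisons, with 95% intervals from the limma fit (n = 3 livers a group). Filled red points passed the adjusted threshold: Ces1g in every panel, with Mgll, Lipe, Lipa and Ces1d in some of them.

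The other carboxylesterases were followed from a list of 15 genes, of which 8 were tested. On the high-fat diet 3 rose and 1 fell. Ces1b went from 13.2 ± 3.26 to 27.6 ± 2.25 FPKM (SD, n = 3, log2 fold change 1.03, limma adjusted p = 0.00831), Ces2c rose by 1.48 (adjusted p = 0.00958) and Ces2g by 0.67 (adjusted p = 0.0096). Ces3b fell from 293 ± 114 to 106 ± 30.1 FPKM (-1.43, adjusted p = 0.0324). In CLE and in LU against HFD livers none of the 8 passed limma's test, and 2 and 3 of them passed an unadjusted p of 0.05. Ces1c, the most abundant of the list, lay at 1094 FPKM in HFD and 914 FPKM in CLE livers on average (-0.27, adjusted p = 0.204). Against ND livers Ces2a and Ces2c were higher in both supplemented groups and Ces1b in CLE. The median log2 fold change of the 8 was 0.36 for HFD against ND, -0.25 for CLE against HFD and -0.27 for LU against HFD.

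Of 10 genes for regulators of ATGL and for coat proteins of the droplet, 9 were tested and 3 rose on the high-fat diet. Cidea, a droplet fusion protein, went from 0.467 ± 0.194 to 26.2 ± 9.03 FPKM (4.15, limma adjusted p = 6.6e-05), Plin4 from 6.08 ± 0.276 to 42.4 ± 8.59 FPKM (2.60, adjusted p = 0.000542) and Plin3 rose by 0.61 (adjusted p = 0.036). In CLE against HFD livers 1 passed: Plin5, a coat protein that binds ATGL and CGI-58, rose by 0.88 (SE 0.198, adjusted p = 0.0347), from 34.4 to 41.6 FPKM in HFD livers to 59.6 to 93.7 FPKM in CLE livers. In LU against HFD livers none passed and 1 had an unadjusted p under 0.05. G0s2, an inhibitor of ATGL, did not pass in any comparison (0.80 for CLE against HFD, adjusted p = 0.247), nor did the second inhibitor Hilpda or the main coat protein Plin2. Against ND livers 4 were higher in CLE (Cidea by 3.60, Plin4 by 2.82, Cidec by 1.14 and Cideb by 0.36) and 3 in LU (Cidea by 4.11, Plin4 by 2.76 and Plin3 by 0.65).

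Of 19 other neutral lipid hydrolases 14 were tested, and Pnpla7 stood apart. It encodes a lysophospholipase of the same patatin-like family, and went from 149 ± 6.98 FPKM in ND to 70.5 ± 11.1 FPKM in HFD, 143 ± 12.3 FPKM in CLE and 129 ± 11.1 FPKM in LU livers (SD, n = 3). The HFD livers, at 61.4 to 82.8 FPKM, lay below all others. The log2 fold changes were -1.08 from ND to HFD (limma adjusted p = 0.000201), 1.02 from HFD to CLE (adjusted p = 0.00193) and 0.87 from HFD to LU (adjusted p = 0.00812), and no other gene of this list passed against HFD with either supplement. On the high-fat diet the lipoprotein lipase gene Lpl rose from 3.60 to 17.2 FPKM on average (adjusted p = 6.5e-05), and the cholesteryl ester hydrolase gene Nceh1 fell by 0.60 (adjusted p = 0.0356). Against ND livers 3 genes were higher in CLE (Lpl by 1.72, Abhd6 by 0.77 and Pnpla6 by 0.73) and 1 was lower (Pnpla8, -0.40), and 2 were higher in LU (Lpl by 1.73 and Pnpla6 by 0.53). Hepatic lipase (Lipc) differed by 0.14 for HFD against ND (adjusted p = 0.481).

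**Figure D4:**
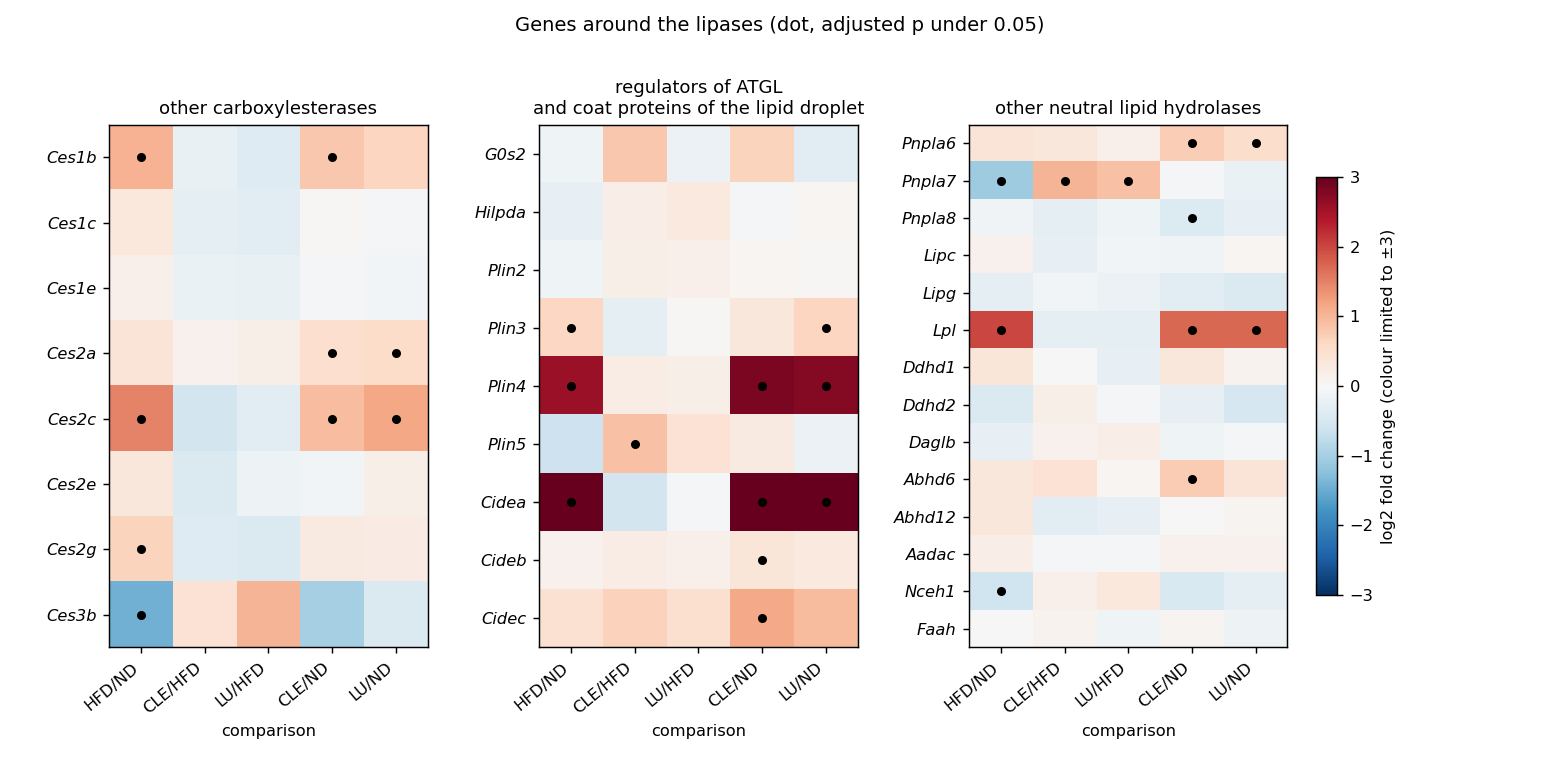
Colours give the log2 fold change, limited to ±3, of the tested genes of 3 lists in 5 comparisons, and dots mark an adjusted p under 0.05 (n = 3 livers a group). Pnpla7 carries dots in HFD against ND and in both comparisons of a supplement with HFD, and Plin5 in CLE against HFD.

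Among SREBP-1c and its lipogenic targets, 1 of 8 rose on the high-fat diet, Srebf1 itself (1.72, limma adjusted p = 0.00948). Scd1, the stearoyl-CoA desaturase, lay at 6012 FPKM in HFD and 2807 FPKM in CLE livers on average and did not pass (-1.20, adjusted p = 0.1). No gene of that list passed against HFD with either supplement, where 1 (CLE) and 0 (LU) had an unadjusted p under 0.05. Against ND livers 2 genes of the list were higher in CLE, Srebf1 (1.54, adjusted p = 0.0118) and Mlxipl (0.75, adjusted p = 0.025), and Elovl6, a fatty acid elongase, was lower (-1.57, adjusted p = 0.00662). In LU against ND livers Elovl6 alone passed (-1.16, adjusted p = 0.0316). Of 12 transcription factors known to act on lipase or carboxylesterase genes 3 rose on the high-fat diet: Nr1i3 (0.93, adjusted p = 0.0345), Pparg (0.70, adjusted p = 0.0238) and Nfe2l2 (0.56, adjusted p = 0.00714). None passed for either supplement against HFD, with 5 (CLE) and 4 (LU) at an unadjusted p under 0.05. Against ND livers Nr1i3 was higher in CLE (1.39) and LU (0.93), Nr1h3 was higher in CLE (0.41) and Ppara was lower in LU (-0.62). Foxo1 differed by -0.42 in CLE against HFD livers (adjusted p = 0.0657).

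For the 5 members that passed in some comparison, the genes with the most similar pattern over the 12 livers were listed by Pearson's r of log2(FPKM + 1), as a description over livers that share groups. For Ces1g these were Mogat1, a monoacylglycerol acyltransferase (0.959), Gga2 (0.959) and Agxt2 (0.957). For Lipa they were Pnpla8 (0.976), Abhd2 (0.974) and Tmem56 (0.97), of which Pnpla8 is a phospholipase of the ATGL family. For Mgll they were Cyp4a31 (0.921), a fatty acid hydroxylase of a multigene family, Lamb3 (0.912) and Impa2 (0.901). For Lipe they were Idua (0.955), R3hcc1 (0.946) and Bcam (0.944), and for Ces1d Pias2 (0.932), Sec14l4 (0.916) and Zfp654 (0.899).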

How the data were processed

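Paired reads of 100 bases were obtained from the liver RNA of 12 mice, with 3 per group as per the labels. The submitters' processing notes name CASAVA 1.8.2, Bowtie2 2.2.3, TopHat2 2.0.12 and Cufflinks 2.2.1. The authors deposited FPKM values for 152210 transcripts, of which 73424 were assembled from the reads. Read numbers are not part of such values, so the depth is unknown. The methods name normalization factors, and whether the FPKM values hold them was not stated. The genome build was not given in the sources used here. GENCODE M21 on GRCm38 gave 87.6% of known transcripts the same start and end and was used for names and coordinates.

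FPKM were summed by the M21 gene of each transcript's reference over 142683 transcripts, since the deposited names merge neighbours. Transcripts with no reference (8149), antisense or intronic ones (836) and 542 others were left out. For the members this differs from a sum by deposited name for Pnpla3 and by low antisense transcripts of Lipe and Mgll. R 4.3.3 with limma 3.58.1 (variance trend, 1 coefficient per group, 12.7 degrees of freedom) was run on log2(FPKM + 1), a scale that understates changes of low genes, for the 12001 genes whose mean reached 0.5 FPKM, with Benjamini-Hochberg adjustment, and was tested on simulated data. P-values are over single mice.

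The members, gene lists and markers were chosen with earlier results of these data known. All members are named, other genes only from the lists, where they passed or define one (markers that passed are named in part), and the 3 most similar genes of each called member. Named beyond that, after their values were seen, are Samm50, Ces1c, G0s2, Hilpda, Plin2, Lipc, Scd1, Foxo1 and the single transcripts. A gene of the lysosomal list is counted but not reported here. Alternatives were a pseudocount of 0.1, no filter, a minimum mean of 5 FPKM, quantile and median-of-ratios scaling, 2 groups alone, no variance trend, known transcripts only, the highest transcript, a GC correction, a replicate block, each mouse left out, and, chosen after seeing the data, deposited names and another place for the long Ces1f transcript.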

Additional observations from a re-analysis of the deposited data

How the results depend on the processing

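The number of members that passed moved as follows. For HFD against ND it was 1 instead of 2 with known transcripts only and with the highest transcript alone, where Mgll lost its call. For CLE against HFD it was 2 instead of 1 with a mean of at least 5 FPKM, with quantile normalization (both adding Mgll) and with known transcripts only (adding Pnpla2). For CLE against ND it was 3 instead of 4 without a filter, with median-of-ratios scaling, with quantile normalization and with the highest transcript alone, and 5 with known transcripts only, which added Pnpla2 and Mgll and lost Lipe. For LU against ND it was 3 instead of 4 without a filter, with known transcripts only and with the GC correction, and 5 with median-of-ratios scaling and with 2 groups alone. With sums by deposited name, where Pnpla3 stands for Samm50, it was 3, 5 and 5 for HFD, CLE and LU against ND. With the long Ces1f transcript counted to Ces1g, chosen after seeing the data, it was 0 for CLE against HFD and 0 for LU against HFD. When each mouse was left out in turn, the members that passed numbered 2 each time for HFD against ND, 1 to 3 for CLE against HFD, 0 to 2 for LU against HFD, 1 to 5 for CLE against ND, 2 to 5 for LU against ND and 0 each time for CLE against LU. A replicate block on the mouse numbers left 0 members in CLE against ND and 4 in LU against ND, as well as 1101 and 769 genes in place of 3208 and 1742. The numbers gave no sign of pairing: deviations of mice with the same number correlated at -0.25 and -0.098 in CLE against ND and at 0.086 and 0.194 in LU against ND. HFD shares no number with another group and CLE shares 1 with LU, so no such fit was made for the other comparisons. Calls of single genes other than the members were not followed through these alternatives. Every call of a member kept its direction in all of them. Differences that had not passed in the report did not all do so: Mgll in CLE against HFD passed in 4 alternatives and turned to -0.49 and -0.48 with known transcripts only and with the highest transcript, while Ces1f in CLE against ND (1 alternative, -0.18 to 0.52) and Pnpla2 in CLE against ND (2 alternatives, -0.05 to 0.62) also changed sign. The causes of these moves were not tested. Over all genes, calls of CLE against HFD fell from 682 to 107 without a filter, 99 with 2 groups alone, 256 with the highest transcript and 349 with the GC correction, and rose to 1030 with quantile normalization. Known transcripts only gave 671 calls for HFD against ND instead of 1411, and the highest transcript 665. LU against HFD went from 120 to 52 without a filter and 284 with 2 groups alone, and CLE against ND from 3208 to 1752 with 2 groups alone and 2042 with the GC correction. Leaving out 1 mouse moved the calls over all genes further, from 670 (without ND mouse 2) to 1693 (without CLE mouse 4) for HFD against ND, 29 (without HFD mouse 15) to 2267 (without CLE mouse 2) for CLE against HFD, 21 (without LU mouse 3) to 543 (without CLE mouse 4) for LU against HFD, 1573 (without ND mouse 4) to 3795 (without CLE mouse 2) for CLE against ND, 639 (without ND mouse 4) to 2570 (without CLE mouse 4) for LU against ND and 1 to 3 (without LU mouse 8) for CLE against LU. With 3 mice a group and no read numbers, small changes of single members cannot be told from their spread.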
